A study of Homo sapiens with 6 samples.

Results

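Genes of the mitochondrial respiratory chain and ATP synthase were examined on 6 Affymetrix HG-U133 Plus 2.0 arrays of KARPAS-422 and Pfeiffer, 2 human lines of DLBCL, a lymphoma of large B cells. Members were chosen by annotated symbol, as nuclear genes whose symbol begins with NDUFA, NDUFB, NDUFC, NDUFS, NDUFV, SDHA to SDHD, UQCR, COX4 to COX8 or ATP5, each read through the single-gene probe set with the highest mean log2 signal. The choice gave 94 genes of 19775 genes with a single-gene probe set, or 178 probe sets of 54675. They comprised 33 genes of complex I, 3 of complex II, 6 of complex III, 17 of complex IV, 18 of complex V, 12 assembly factors named NDUFAF or SDHAF, and 5 antisense, divergent or pseudogene transcripts. Of these, 90 passed the filter on dim signals and were tested among 13036 genes. COX6B2, COX7A1, COX7B2 and COX6A1P1 did not pass it. NDUFA4, a complex IV subunit, is annotated here as COXFA4 and lies outside the set.

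The question of the study was what a knockdown of EZH2, the histone methyltransferase of Polycomb repressive complex PRC2, does to gene expression in these lines. Cells of each line received lentivirus with a hairpin against EZH2 (shEZH2) or with a non-targeting hairpin (shNTC) in the presence of polybrene, were selected with puromycin, and were profiled at 10 days. The groups were KARPAS-422 shEZH2 with 2 arrays, KARPAS-422 shNTC with 2 arrays, Pfeiffer shEZH2 with 1 array and Pfeiffer shNTC with 1 array. All groups thus had a lentiviral hairpin, polybrene and puromycin selection, and untransduced cells were not analysed here. Each arm used 1 hairpin sequence, so an effect of losing EZH2 and another effect of that hairpin cannot be told apart. The titles call the KARPAS-422 arrays biological replicates, and the labels do not say whether infections were separate, so p-values measure the spread between these arrays. Bulk RNA cannot tell fewer cells of a type from less RNA per cell. The hairpins are printed with the 2 arms of each stem in capitals, since all contrasts of shEZH2 with shNTC rest on them.
shEZH2: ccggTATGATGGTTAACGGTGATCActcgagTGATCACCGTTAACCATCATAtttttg
shControl (shNTC): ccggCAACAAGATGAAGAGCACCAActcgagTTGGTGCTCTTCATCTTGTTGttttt

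The respiratory chain sits in the inner mitochondrial membrane. Complex I takes electrons from NADH and complex II from succinate, both pass them to ubiquinone, complex III hands them to cytochrome c, and complex IV passes them to oxygen. Complexes I, III and IV pump protons, and complex V, the ATP synthase, uses the returning protons to make ATP. Most subunits are encoded in the nucleus and a few core subunits in mitochondrial DNA, and dedicated assembly factors help to build the complexes without staying in them. Respiratory gene expression is known to vary among DLBCL tumours, some of which rely strongly on oxidative phosphorylation.

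EZH2 itself gave log2 signals of 10.52 and 10.55 on the KARPAS-422 shEZH2 arrays, against 11.71 and 11.57 on the shNTC arrays. It fell by 1.11 on the log2 scale (SE 0.08, limma adjusted p = 0.000773), with no overlap between the arms. In Pfeiffer it was 10.23 with shEZH2, against 11.65 with shNTC. Pearson correlations over all genes tested were 0.982 between the KARPAS-422 shEZH2 replicates and 0.978 between the shNTC replicates, beside 0.977 between the single Pfeiffer arrays. All 7 B cell markers measured lay above the array's median signal on all 6 arrays. The log2 of the summed linear signal of 10 T and NK cell markers was 12.02 to 12.19 in KARPAS-422 shEZH2 cells. It was 12.70 to 12.83 in shNTC cells, led by CD3D and CD3G. That of 9 myeloid markers was 8.08 to 8.40 in shEZH2 cells and 8.56 to 8.65 in shNTC cells. That of 10 fibroblast and epithelial markers was 13.50 to 13.67 in shEZH2 cells and 13.67 to 13.77 in shNTC cells. The median difference of the 6 of these 10 that were tested was 0.46. In Pfeiffer the T and NK value was 13.67 with shEZH2 and 13.55 with shNTC. The myeloid values there were 9.05 and 8.93, and the fibroblast and epithelial values 13.19 and 13.51. The difference between the 3′ and 5′ control probe sets of ACTB was 0.138 and 0.175 in shEZH2 cells, against 0.0593 and 0.0830 in shNTC cells. That of GAPDH was -0.169 and -0.241 in shEZH2 cells, against -0.182 and -0.158 in shNTC cells. The part of these in the results was not tested.

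In KARPAS-422, knockdown of EZH2 was accompanied by lower signals of many respiratory genes on the deposited scale, each by a small amount. Of the 90 members tested, 42 fell and 1 rose at an adjusted p under 0.05, beside 12.3% lower and 13.1% higher among all genes tested. Of the 42 calls, 14 were also made after cyclic loess, an alternative scaling that levels the arrays along the signal axis. The median difference over the members was -0.25 on the log2 scale, beside -0.02 over all genes. The member that rose was NDUFV2-AS1, an antisense transcript with a dim signal, at 6.995 and 6.988 in shEZH2 cells and 5.999 and 6.073 in shNTC cells, a rise of 0.96 (adjusted p = 0.0429). A further dim probe set of this transcript differed by 0.23. The shEZH2 arrays lay below both shNTC arrays for 68 members and above them for 3, where the corresponding shares of all genes were 33.9% and 31.8%. Members of each complex were among those that fell, as the plot by complex shows.

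**Figure D1:**
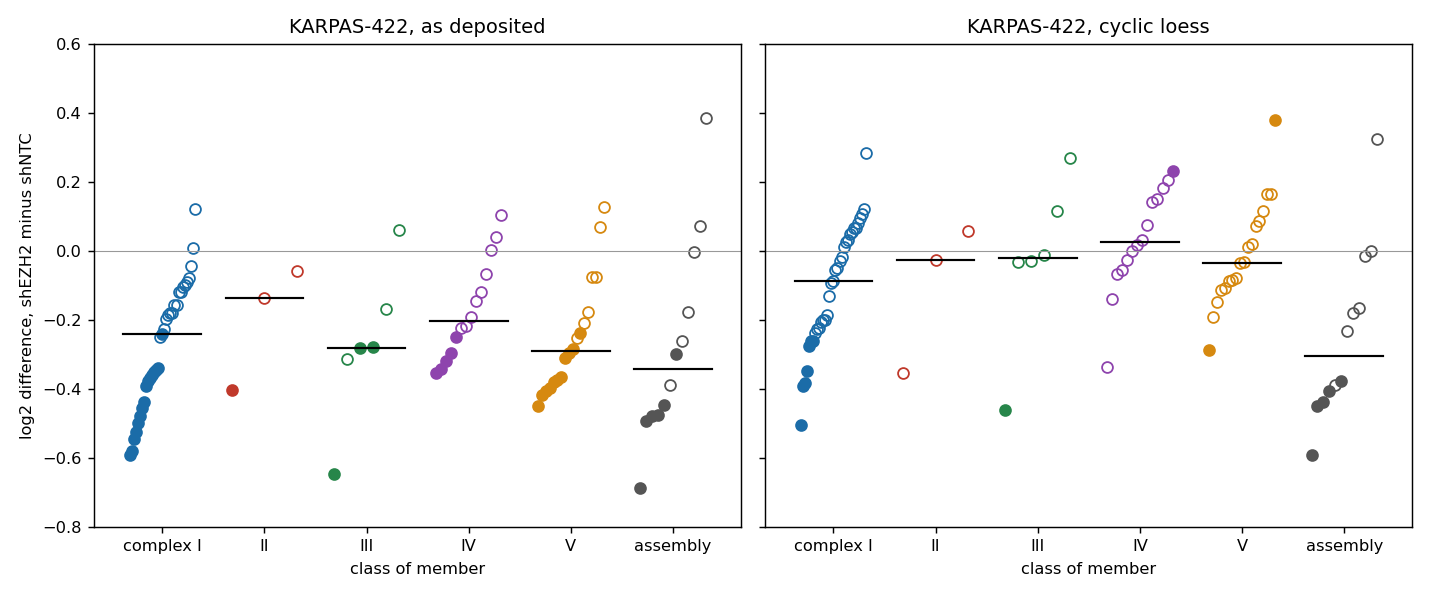
Log2 difference between shEZH2 and shNTC in KARPAS-422 cells for each tested subunit or assembly factor, grouped by complex, as deposited (left) and after cyclic loess (right). Filled points have a limma adjusted p under 0.05, open points do not, and black bars are medians; most points lie below 0 on the left, while on the right the medians of complexes I to V lie between -0.088 and 0.024 and that of the assembly factors stays at -0.30.

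Complex I, the NADH dehydrogenase, had 16 of 33 members lower, with a median of -0.24. NDUFS1, the large subunit that carries iron-sulfur clusters in the NADH-oxidising arm, gave log2 signals of 11.28 and 11.50 in shEZH2 cells, against 11.99 and 11.97 in shNTC cells. It fell by 0.59 (SE 0.10, adjusted p = 0.00768), to 66.4% of its shNTC level. Its 3 further probe sets, all dimmer, had differences of -0.14 to -0.45. NDUFB10, an accessory subunit of the membrane arm, gave 12.62 and 12.71 with shEZH2, against 13.17 and 13.32 with shNTC. It fell by 0.58 (SE 0.09, adjusted p = 0.00446). The arms of neither gene overlapped. NDUFA6, an accessory subunit of the matrix arm, fell by 0.55 (adjusted p = 0.0054), and NDUFB9, an accessory subunit of the membrane arm, fell by 0.53 (adjusted p = 0.00597). At the other end, NDUFA7, an accessory subunit, differed by 0.01 and NDUFA5, another, by 0.12, and neither passed the test (adjusted p = 0.961 and 0.412).

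Complex III, the cytochrome bc1 complex, had 3 of 6 members lower and a median of -0.28. Its largest difference was that of UQCRC1, a core subunit on the matrix side. UQCRC1 gave 12.37 and 12.36 in shEZH2 cells, against 12.99 and 13.04 in shNTC cells. The arms were well apart, and UQCRC1 fell by 0.65 (SE 0.07, adjusted p = 0.00188), to 63.9% of its shNTC level. UQCRC2, the other core subunit, fell by 0.28 (adjusted p = 0.0264), and so did UQCRQ, a small subunit that binds ubiquinone (adjusted p = 0.0306). CYC1, the cytochrome c1 of the same complex, lies outside the symbol prefixes. It gave 12.66 and 12.52 with shEZH2, against 13.22 and 13.21 with shNTC, and fell by 0.63 (adjusted p = 0.0026).

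In complex II, succinate dehydrogenase, SDHA, the flavoprotein that oxidises succinate, fell by 0.40 (adjusted p = 0.0419). SDHC and SDHD, the membrane anchors, differed by -0.06 and -0.14 without passing the test, and the median over the 3 members was -0.14. In complex IV, cytochrome c oxidase, 5 of 14 members were lower, with a median of -0.20. COX6B1, which faces the intermembrane space, fell by 0.36 (adjusted p = 0.014), COX4I1, the widely expressed regulatory subunit, by 0.34 (adjusted p = 0.0193), COX6A1 by 0.32 (adjusted p = 0.0159) and COX7B by 0.30 (adjusted p = 0.0217). None of the 5 calls of complex IV was made after cyclic loess. With the mean of all kept probe sets COX4I1 differed by 0.027 (adjusted p = 0.879), and COX7B was called higher, by 0.43 (adjusted p = 0.021). In complex V, 11 of 18 members were lower, with a median of -0.29. ATP5MC1, 1 of several genes for the proton-carrying c subunit, gave 12.21 and 12.20 with shEZH2, against 12.64 and 12.66 with shNTC, and fell by 0.45 (SE 0.08, adjusted p = 0.0071). ATP5PD and ATP5PB, both of the peripheral stalk, fell by 0.42 (adjusted p = 0.00847) and 0.41 (adjusted p = 0.0102), and ATP5F1A, the alpha subunit of the catalytic head, by 0.40 (adjusted p = 0.0151). Of the other genes for the c subunit, ATP5MC3 fell by 0.30 (adjusted p = 0.0381) and ATP5MC2 differed by -0.08 (adjusted p = 0.528).

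The assembly factors had the lowest median, -0.34, with 6 of 12 lower. NDUFAF4, which acts early in complex I assembly, gave 11.31 and 11.49 in shEZH2 cells, against 12.08 and 12.09 in shNTC cells. Its arms did not overlap, and it fell by 0.69 (SE 0.10, adjusted p = 0.00367), to 62.1% of its shNTC level, the largest fall among the 90 members. NDUFAF1, NDUFAF2 and NDUFAF6, which also serve complex I, fell by 0.49 (adjusted p = 0.0183), 0.48 (adjusted p = 0.00861) and 0.48 (adjusted p = 0.0134). None of the 4 factors of complex II passed the test. SDHAF4, a chaperone of SDHA, was 9.76 and 9.92 with shEZH2 and 9.40 and 9.52 with shNTC, a difference of 0.38 that missed the threshold (adjusted p = 0.0635). SDHAF3 differed by -0.39 (adjusted p = 0.0995) and SDHAF1 by 0.07 (adjusted p = 0.762), and SDHAF2 had an adjusted p of 0.985.

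These calls rested on how limma shares the spread among genes. Without a trend of the spread with signal, 0 members were called lower and 32 were lower at an unadjusted p under 0.05, beside 134 of all genes called lower and 15.8% lower at that unadjusted p. Leaving out KARPAS-422 shEZH2 replicate 2 left 9 members lower, beside 3.21% of all genes, and leaving out shEZH2 replicate 1 left 20, beside 4.12%. Leaving out shNTC replicate 1 or 2 left 21 each, beside 8.48% and 8.54%. The single array of the reduced arm is assumed in these fits to vary like the arrays of the other KARPAS-422 arm. NDUFA1, NDUFA6, NDUFAF4, NDUFB10, NDUFB9, NDUFC1, NDUFS6 and UQCRC1 were called lower in each of these 4 fits. Several probe sets were kept for 22 of the called members, and for 13 of them a probe set not used for the test had the opposite sign. Among these were dim second probe sets of COX4I1, with a difference of 0.75, and of NDUFB6, with 0.72. ATP5MG, which fell by 0.24 (adjusted p = 0.0488), was called higher by 0.69 (adjusted p = 0.0226) where _x_at and _s_at probe sets were left out. NDUFAF4 had a dim second probe set at 0.21 and NDUFC1 one at 0.05. The second probe sets of NDUFA6, NDUFB10, NDUFAF5 and NDUFS7 had negative differences too, between -0.33 and -0.60.

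Members are bright on these arrays, and bright genes in general were lower in the KARPAS-422 shEZH2 cells on the deposited scale. A mean log2 signal of 12 or more was found for 67.8% of the members tested, beside 10.5% of all genes. Of the 1375 genes at or above that signal, 42.5% were called lower, with a median of -0.23, and the 61 members there had a median of -0.28. After cyclic loess, 15.8% of those bright genes were called lower and their median was -0.014. The median of the 61 bright members was then -0.028. Between 12 and 13, 12 of 23 members were called lower as deposited, beside 38.9% of all genes there. Between 13 and 14, 19 of 36 were, beside 50.7%. After cyclic loess these were 5 and 2, beside 20.1% and 8.31%. The 2 members at 14 or more were called lower as deposited, beside 46.1%, and 0 of them after cyclic loess, beside 0%. For the 19 members with a signal between 10 and 12, the median as deposited was -0.30, with 9 lower, beside a median of -0.05 and 19.1% lower over all genes in that range. After cyclic loess it was -0.23, with 7 lower, beside -0.02 and 14.7%.

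**Figure D2:**
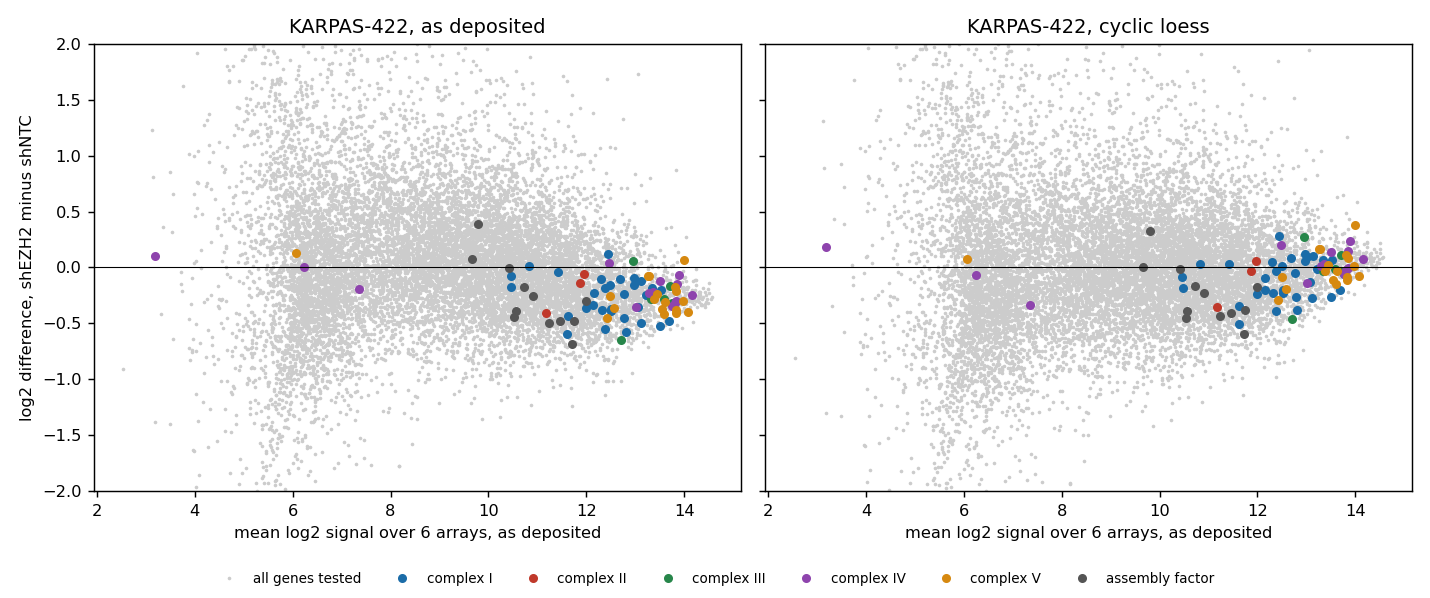
Log2 difference between shEZH2 and shNTC in KARPAS-422 cells against the mean log2 signal over 6 arrays, for all genes tested (grey) and for the members by complex, as deposited (left) and after cyclic loess (right). The grey cloud bends below 0 above a signal of about 12 on the left and is level on the right; 274 genes on the left and 256 on the right lie beyond the axis limits of 2 log2 units.

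After cyclic loess, 14 members fell and 2 rose in KARPAS-422, beside 9.16% lower and 12.2% higher over all genes. The member median was -0.033, beside -0.031 over all genes. Complex I had 7 members lower with a median of -0.088, complex III had UQCRC1 lower with a median of -0.019, and complex V had ATP5MC1 lower with a median of -0.034. Complexes II and IV had 0 lower in limma, with medians of -0.028 and 0.024. At an unadjusted p under 0.05 they had 1 and 0 lower, beside 18.1% of all genes. The assembly factors had 5 of 12 lower and a median of -0.30. The shEZH2 arrays now lay below the shNTC arrays for 38 members and above them for 20, where 33.8% and 30.7% of all genes did so. Without the trend, 0 members were lower on this scale too, and leaving out 1 array left 3 without shEZH2 replicate 2, 4 without shEZH2 replicate 1, 11 without shNTC replicate 1 and 8 without shNTC replicate 2, beside 2.77%, 2.39%, 10.1% and 9.57% of all genes.

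The 14 members lower on both scales were all among the 42. They were the assembly factors NDUFAF1, NDUFAF2, NDUFAF4, NDUFAF5 and NDUFAF6, the complex I subunits NDUFA6, NDUFB9, NDUFB10, NDUFC1, NDUFS1, NDUFS6 and NDUFS7, UQCRC1 of complex III, and ATP5MC1 of complex V. The list was drawn up from the calls themselves and is a description. The share of all genes called lower on both scales is not given here, so the count of 14 has no background beside it. After cyclic loess NDUFAF4 fell by 0.59 (adjusted p = 0.00779), NDUFS1 by 0.50 (adjusted p = 0.0163), UQCRC1 by 0.46 (adjusted p = 0.00562) and NDUFA6 by 0.39 (adjusted p = 0.0184). NDUFAF5, which modifies the subunit NDUFS7 during assembly, gave 10.35 and 10.31 in shEZH2 cells, against 10.71 and 10.85 in shNTC cells, as deposited. It fell by 0.45 on either scale (adjusted p = 0.0232 as deposited and 0.027 after cyclic loess). NDUFS7, which holds the last iron-sulfur cluster before ubiquinone, gave 11.36 and 11.32 with shEZH2, against 11.79 and 11.76 with shNTC. It fell by 0.44 as deposited (adjusted p = 0.0115) and by 0.35 after cyclic loess (adjusted p = 0.0268).

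**Figure D3:**
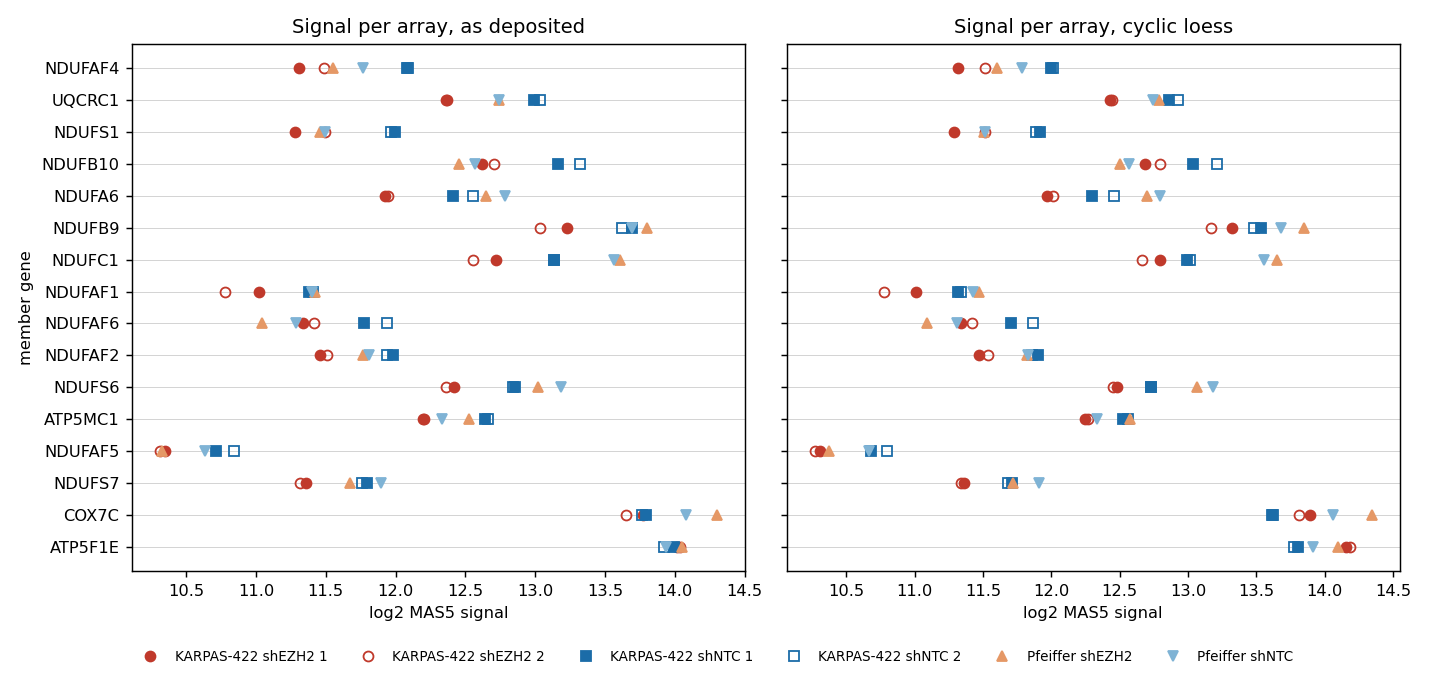
Log2 signal on each of the 6 arrays for the 14 members lower in KARPAS-422 shEZH2 cells on both scales and for COX7C and ATP5F1E, as deposited (left) and after cyclic loess (right). Red circles are KARPAS-422 shEZH2, blue squares KARPAS-422 shNTC (open symbols are replicate 2) and triangles Pfeiffer; the red circles lie left of the blue squares for all 14 genes in both panels, and right of them for COX7C and ATP5F1E in the right panel.

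The other 28 members called lower as deposited did not pass the test after cyclic loess. ATP5F1A differed by -0.08 there (adjusted p = 0.418), COX4I1 by -0.05 (adjusted p = 0.56) and UQCRC2 by -0.03 (adjusted p = 0.744). For ATP5MC3, ATP5MG and COX6C the sign turned, to 0.012, 0.019 and 0.076, without passing the test. NDUFV2-AS1 did not pass either (adjusted p = 0.0645). The 2 members that rose after cyclic loess were small subunits. ATP5F1E, the epsilon subunit in the rotating stalk of ATP synthase, gave 14.03 and 14.02 in shEZH2 cells and 13.99 and 13.92 in shNTC cells as deposited, values close together but not overlapping. Its difference was 0.07 as deposited (adjusted p = 0.467) and 0.38 after cyclic loess (SE 0.05, adjusted p = 0.00409). COX7C, a small membrane subunit of complex IV, gave 13.77 and 13.65 with shEZH2, against 13.79 and 13.77 with shNTC, as deposited. The difference was -0.07 there (adjusted p = 0.515) and 0.23 after cyclic loess (SE 0.05, adjusted p = 0.0261). Its further probe sets had differences of 0.30 and 0.50 on that scale, while a dim further probe set of ATP5F1E had -0.46. No member was called in opposite directions on the 2 scales.

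Promoter sequences of the members were taken from RefSeq (GRCh38.p14), which matched 77 of the 89 subunits and assembly factors, and were searched over 300 bases, from 250 before the annotated start to 50 after. Letters for 3 factors known to act at nuclear respiratory genes were looked for on both strands: GCGCNTGCG for NRF1, CCGGAAGT for ETS factors such as GABPA, and AAGATGGCG for YY1. Overlapping matches of different motifs were each counted. At least 1 motif was found in 45.5% of member promoters, 24.1% of the promoters of genes tested and 13.1% of all promoters in the table. NRF1 letters were in 25 of the 77 member promoters, a share of 32.5%, against 14.5% of those of genes tested and 8.05% of all. ETS letters were in 10 member promoters, against 8.48% of those of genes tested and 4.44% of all, and YY1 letters in 7, or 9.09%, against 3.79% and 1.85%. Of the 12 matched promoters of members lower on both scales, 6 held at least 1 motif, 5 of them the NRF1 letters and 3 the YY1 letters. Promoters are shown for UQCRC1 and NDUFS1, which fell on both scales, and for ATP5F1E, which did not, on the strand of the gene with motif matches in capitals. Those of UQCRC1 are NRF1, whose first base lies 47 bases before the start, and YY1, 23 bases after it. NDUFS1 has an ETS match, read on the opposite strand, 158 bases before the start, and ATP5F1E has none of the 3 in this window. The promoter of NDUFAF4, the member with the largest fall, has none of the 3 either and is not shown. Nor has that of COX7C, which rose after cyclic loess. These examples do not tie a motif to a fall.
UQCRC1 (chr3:48609597-48609896, minus strand): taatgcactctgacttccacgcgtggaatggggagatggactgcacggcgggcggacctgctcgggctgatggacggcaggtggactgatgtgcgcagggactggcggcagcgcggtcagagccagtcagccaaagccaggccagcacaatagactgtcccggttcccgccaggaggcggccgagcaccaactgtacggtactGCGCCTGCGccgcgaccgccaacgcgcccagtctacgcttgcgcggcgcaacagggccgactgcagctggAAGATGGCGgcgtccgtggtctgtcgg
NDUFS1 (chr2:206159395-206159694, minus strand): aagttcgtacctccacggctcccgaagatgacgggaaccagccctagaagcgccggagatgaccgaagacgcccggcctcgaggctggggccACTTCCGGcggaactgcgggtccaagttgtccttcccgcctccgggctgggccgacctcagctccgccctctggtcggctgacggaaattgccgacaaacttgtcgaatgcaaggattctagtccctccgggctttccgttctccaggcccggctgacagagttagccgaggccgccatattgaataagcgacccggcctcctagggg
ATP5F1E (chr20:59032286-59032585, minus strand): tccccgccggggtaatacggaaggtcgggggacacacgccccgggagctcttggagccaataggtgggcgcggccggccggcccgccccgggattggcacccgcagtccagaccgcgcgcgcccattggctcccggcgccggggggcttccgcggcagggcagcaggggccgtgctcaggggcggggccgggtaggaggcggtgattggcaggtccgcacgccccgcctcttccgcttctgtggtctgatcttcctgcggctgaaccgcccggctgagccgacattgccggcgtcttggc

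Other genes that serve the chain were read from lists. Of 44 further assembly and biogenesis genes outside the NDUFAF and SDHAF names, 19 were lower and 0 higher as deposited in KARPAS-422, with a median of -0.30, beside 12.3% and 13.1% of all genes. After cyclic loess 11 were lower and 0 higher, with a median of -0.21, beside 9.16% and 12.2%. At an unadjusted p under 0.05 in limma, 27 of the list were lower and 3 higher as deposited, beside 19.8% and 19.9% of all genes. After cyclic loess 20 were lower and 3 higher at that p, beside 18.1% and 19.2%. TACO1, a translational activator of the mitochondrial COX1 message, gave 9.33 and 9.42 in shEZH2 cells, against 10.58 and 10.54 in shNTC cells. It fell by 1.19 (adjusted p = 0.00081), and in Pfeiffer it was 10.28 with shEZH2, against 11.33 with shNTC. ACAD9, which works with NDUFAF1 in complex I assembly, fell by 0.56 (adjusted p = 0.0111). Of 18 genes for electron carriers, ubiquinone synthesis and ubiquinone-reducing enzymes, 6 were lower and 1 higher on either scale, beside the same shares of all genes. COQ3, a methyltransferase of ubiquinone synthesis, fell by 0.88 (adjusted p = 0.00189) and CHDH, choline dehydrogenase, by 0.76 (adjusted p = 0.0279). SQOR, which oxidises sulfide and reduces ubiquinone, rose by 0.79 as deposited at a dim signal (adjusted p = 0.0419), and the call was lost after cyclic loess (adjusted p = 0.0851). The gene called higher on that scale was CYCS, cytochrome c, by 0.22 (adjusted p = 0.0253), which differed by -0.09 as deposited (adjusted p = 0.38). Of 9 known regulators of respiratory genes, 0 passed the limma test as deposited, with a median of -0.17. At an unadjusted p under 0.05, 1 was lower, beside 19.8% of all genes. After cyclic loess the median was -0.24 and 3 were lower at an unadjusted p under 0.05, beside 18.1% of all genes. YY1 was called higher on that scale, by 0.24 (adjusted p = 0.0422).

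The mitochondrially encoded core subunits of complex IV could be set beside the nuclear members. COX1 differed by -0.22 (adjusted p = 0.126) and COX2 by -0.18 (adjusted p = 0.195) as deposited, and by 0.13 and 0.17 after cyclic loess. COX3 gave 12.04 and 12.31 in shEZH2 cells, against 12.48 and 12.75 in shNTC cells. It fell by 0.44 as deposited (adjusted p = 0.0404), and the difference of -0.29 after cyclic loess did not pass (adjusted p = 0.156). COXFA4, formerly NDUFA4, differed by -0.06 as deposited (adjusted p = 0.624) and by 0.20 after cyclic loess (adjusted p = 0.0626).

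In Pfeiffer, with 1 array a group and no test, the members differed little between the hairpins. Their median difference was 0.02, beside 0.03 over all genes, and the medians were -0.03 for complex I, -0.04 for complex II, 0.06 for complex III, 0.04 for complex IV, 0.03 for complex V and -0.06 for the assembly factors. With each array centred on its median, the medians of complexes III, IV and V turned to -0.054, -0.078 and -0.093. A difference past 0.5 log2 units was seen upward for 3 members and downward for 1, beside 11.9% and 6.11% of all genes. After cyclic loess these were 2 upward and 1 downward, beside 10.2% and 7.39%. Replicate 2 minus replicate 1 in KARPAS-422 passed that size upward for 0 members and downward for 1 with shEZH2, beside 6.87% and 6.59% of all genes, and upward for 1 and downward for 2 with shNTC, beside 9.12% and 7.45%. The 4 Pfeiffer members were dim or noncoding. COX6A2, the muscle form of COX6A, was 6.56 with shEZH2 and 5.53 with shNTC, and COX8C, a testis form, was 8.07 with shEZH2 and 8.61 with shNTC. NDUFV1-DT, a divergent transcript, was 7.27 with shEZH2 and 6.32 with shNTC, and NDUFV2-AS1 was 7.52 with shEZH2 and 6.986 with shNTC. Of the members called lower on both scales in KARPAS-422, UQCRC1 was 12.74 on both Pfeiffer arrays, and NDUFS1 was 11.46 with shEZH2 and 11.49 with shNTC. ATP5MC1 was 12.53 with shEZH2 and 12.33 with shNTC. NDUFAF4, NDUFAF5 and NDUFAF6 differed by -0.22, -0.31 and -0.25, and these differences have no replicate.

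**Figure D4:**
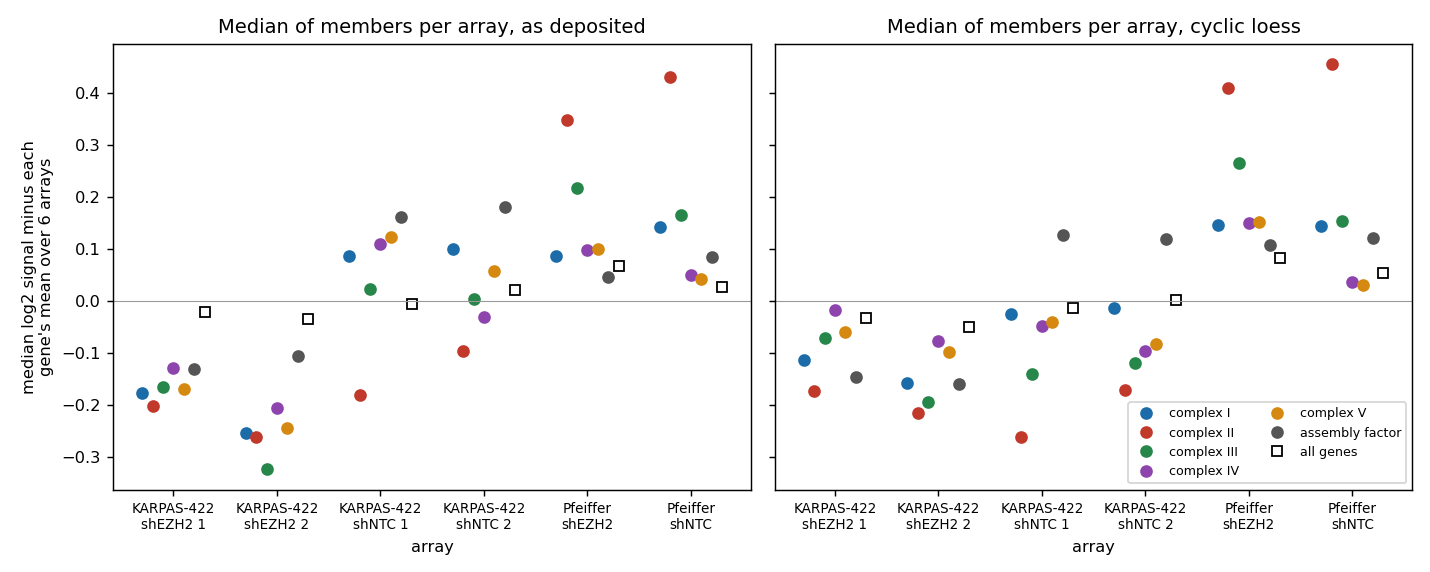
Median over the members of each complex of the log2 signal minus the gene's mean over 6 arrays, on each array, as deposited (left) and after cyclic loess (right), with all genes as open squares. As deposited the complex I median was -0.18 and -0.25 on the KARPAS-422 shEZH2 arrays and 0.09 and 0.10 on the shNTC arrays; in Pfeiffer it was 0.09 with shEZH2 and 0.14 with shNTC.

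Over both lines, with the line as a term, 2 members were lower and 0 higher as deposited, beside 2.46% lower and 3.76% higher over all genes. At an unadjusted p under 0.05 in limma, 31 were lower and 2 higher, beside 13.3% and 15.8% of all genes. NDUFAF4 fell by 0.53 (SE 0.12, adjusted p = 0.0448). NDUFB6, an accessory subunit of the membrane arm of complex I, gave 12.47, 12.42 and, in Pfeiffer, 12.13 with shEZH2, against 12.81, 12.82 and 12.44 with shNTC. It fell by 0.35 (SE 0.08, adjusted p = 0.0428), being lower with shEZH2 within each line. Both calls were lost after cyclic loess (adjusted p = 0.0537 and 0.0793), where 0 members were lower and 2 higher in limma, beside 1.85% and 3.7%, with 12 lower and 6 higher at an unadjusted p under 0.05, beside 12.3% and 15.6%. The higher ones were ATP5F1E, by 0.31 (adjusted p = 0.0325), and COX7C, by 0.25 (adjusted p = 0.0394). Leaving out any 1 KARPAS-422 array left 0 lower, beside at most 0.0153% of all genes, so almost no gene was called in those fits. Leaving out either Pfeiffer array left 41, beside 12.6%, since the contrast then rests on KARPAS-422 alone.

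Whether the effect of the hairpin differed between the lines was tested with an interaction term, in which the single Pfeiffer arrays borrow the spread of KARPAS-422. No member passed the adjusted threshold in limma on either scale, beside 0.453% lower and 1.25% higher over all genes as deposited, and 0.43% lower and 1.2% higher after cyclic loess. At an unadjusted p under 0.05, 32 members had a more negative difference in KARPAS-422 as deposited and 12 after cyclic loess, beside 8.89% and 7.76% of all genes. A more positive one was found for 0 members on either scale, beside 8.58% and 8.41%. The smallest adjusted p was that of UQCRC1, whose difference in KARPAS-422 minus that in Pfeiffer was -0.64 (SE 0.13, adjusted p = 0.0617). ATP5MC1 followed with -0.65 (SE 0.13, adjusted p = 0.0643). A difference between lines in the response of these genes was thus not shown at the adjusted threshold in this model. With replicate number as a block, 7 members were called more negative in KARPAS-422 and 0 more positive, beside 1.2% and 1.7% of all genes. Same-numbered arrays did not deviate together, so that block was not used for the main fit.

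The lines were compared over both hairpins. In the additive model 9 members were higher and 28 lower in KARPAS-422 than in Pfeiffer, beside 23.5% higher and 26.7% lower over all genes, and the member median was -0.16, beside -0.05. As deposited, the share of members lower was thus near that of all genes, and the share higher was below it. After cyclic loess 10 were higher and 38 lower, beside 22.2% and 29.5%, so the share lower was then above that of all genes. On both scales 9 were higher and 27 lower, and the share of all genes called on both scales is not given here. These counts of lower members include COX8C, which passed the filter only through the Pfeiffer arrays and so had to differ. Medians as deposited were -0.17 for complex I, -0.61 for complex II, -0.29 for complex III, -0.11 for complex IV, -0.12 for complex V and -0.02 for the assembly factors. With each array centred on its median, 20 were higher and 15 lower, beside 33.6% and 20.1%, so the balance of the 2 directions depends on the scaling. More members were called higher and fewer lower without the Pfeiffer shEZH2 array, and the reverse held without the Pfeiffer shNTC array. Each of these fits has 1 Pfeiffer array, so their counts are not compared.

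**Figure D5:**
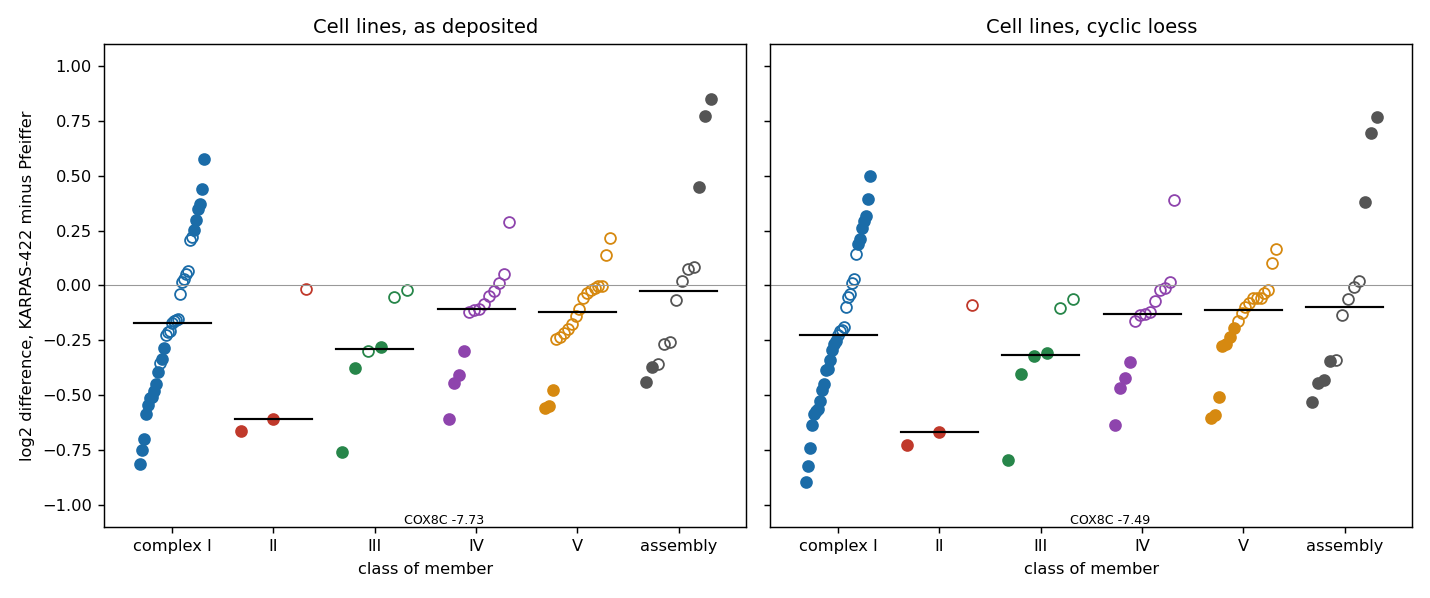
Log2 difference between KARPAS-422 and Pfeiffer for each tested subunit or assembly factor, grouped by complex, as deposited (left) and after cyclic loess (right). Filled points have a limma adjusted p under 0.05 and black bars are medians; SDHC and SDHD lie well below 0 in complex II, complex I spreads to both sides, and COX8C, beyond the axis, is written at the lower edge.

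In complex II the membrane anchors differed between the lines. SDHC gave 11.76, 11.70, 11.78 and 11.79 on the KARPAS-422 arrays, against 12.31 and 12.42 on the Pfeiffer arrays. It was lower by 0.61 in KARPAS-422 (SE 0.09, adjusted p = 0.000641). SDHD gave 11.47, 11.69, 11.66 and 11.78 in KARPAS-422, against 12.33 and 12.30 in Pfeiffer, and differed by -0.66 (SE 0.10, adjusted p = 0.00115). The lines did not overlap for either gene. SDHA, the catalytic subunit, differed by -0.01 (adjusted p = 0.935).

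In complex I the members went both ways, with 6 higher and 12 lower. NDUFV3, of the NADH-oxidising head, differed by -0.81 (adjusted p = 0.00192), NDUFS4, an accessory subunit of the matrix arm, by -0.75 (adjusted p = 0.000457), NDUFC1 by -0.70 (adjusted p = 0.00255) and NDUFA2 by -0.59 (adjusted p = 0.000801). NDUFA7 was higher by 0.58 (adjusted p = 0.00263), NDUFB10 by 0.44 (adjusted p = 0.0168), NDUFA3 by 0.37 (adjusted p = 0.00874) and NDUFB6 by 0.35 (adjusted p = 0.00836). NDUFS4 gave 11.16, 11.15, 11.11 and 11.29 in KARPAS-422, against 11.96 and 11.90 in Pfeiffer, and NDUFA7 gave 10.96, 11.09, 11.01 and 11.02 in KARPAS-422, against 10.35 and 10.54 in Pfeiffer. In complex III, UQCRC2 was 12.90, 12.97, 13.20 and 13.24 in KARPAS-422, against 13.87 and 13.81 in Pfeiffer, and differed by -0.76 (adjusted p = 0.000411). UQCRC1, the other core subunit, differed by -0.05 (adjusted p = 0.78).

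In complex V, ATP5PD differed by -0.56 (adjusted p = 0.00361), ATP5IF1, the inhibitor that blocks the reverse reaction of the synthase, by -0.55 (adjusted p = 0.000992) and ATP5MG by -0.48 (adjusted p = 0.00333). Further probe sets of ATP5IF1 had smaller line differences, -0.15 and -0.06. Their mean log2 signals were 12.20 and 10.33, beside 12.49 for the probe set used. Among the assembly factors SDHAF3, of complex II, was higher by 0.85 (adjusted p = 0.00128), NDUFAF3 by 0.77 (adjusted p = 0.00039) and NDUFAF6 by 0.45 (adjusted p = 0.00826). SDHAF4 was lower by 0.44 (adjusted p = 0.0221) and NDUFAF8 by 0.37 (adjusted p = 0.0145). NDUFAF3 gave 11.07, 10.99, 11.32 and 11.26 in KARPAS-422, against 10.30 and 10.47 in Pfeiffer. The line difference of the assembly factors thus ran in both directions, as in complex I.

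Tissue forms of complex IV subunits were mostly dim. COX4I1 was 13.47, 13.30, 13.75 and 13.70 in KARPAS-422, against 14.18 and 14.16 in Pfeiffer, and differed by -0.61 (adjusted p = 0.00178). COX4I2, the lung form, was 7.11 to 7.62 on all 6 arrays, with a line difference of -0.02 (adjusted p = 0.942). COX7A2L, a relative of COX7A that serves supercomplexes, differed by -0.30 (adjusted p = 0.0261), while COX7A2 differed by 0.01 and COX6A1 by -0.11, neither passing the test. COX7A1, the muscle form, lay at 2.17 to 3.08, and COX6B2 and COX7B2, testis forms, at 4.82 to 6.61 and 4.73 to 5.54. COX8C, a testis form beside the widely expressed COX8A, was 1.14, 0.18, 0.58 and 0.54 in KARPAS-422, against 8.07 and 8.61 in Pfeiffer. It passed the filter only through the Pfeiffer arrays and so had to differ, and at the KARPAS-422 signals the size of the difference, -7.73, is uncertain. COX8A differed by 0.05 (adjusted p = 0.685). COXFA4L2, a form related to COXFA4, was 5.07, 6.06, 6.27 and 6.29 in KARPAS-422, against 3.20 and 4.08 in Pfeiffer. It was dim throughout and passed the filter only through the KARPAS-422 shNTC arrays, so a line difference was built into its selection. ATP5MF was read only by a probe set between 5.24 and 6.63, so that subunit was not measured in a bright range.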

How the data were processed

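RNA of 6 samples was hybridised to 1 array each. The deposited values are log2 of the authors' MAS5 signals. MAS5 comes from the submitters' processing notes, which give it no version. The log base was read from the values: their 2% trimmed mean on the linear scale was 500.0 on all 6 arrays. MAS5 scales each array separately, so a difference that depends on signal stays in the values. No detection call, scan date or batch was analysed. The number of arrays limits the precision.

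Probe sets with 1 gene symbol and at least 2 of 6 arrays above the median of all values (6.21) were kept, with the brightest per gene tested. In all, 18 probe sets with several symbols that name a member were left out. Linear models were fitted with limma 3.58.1 (lmFit, eBayes with trend, R 4.3.3). Two-sided p-values were adjusted by Benjamini-Hochberg across 13036 genes and called under 0.05. The KARPAS-422 contrast and the interaction came from a model of 4 groups, with 2 residual and 5.24 prior degrees of freedom, and both other contrasts from an additive model of line and hairpin, with 3 and 4.72. Pfeiffer alone had no test. Cyclic loess (limma, fast, 3 iterations, span 0.7) was run over all probe sets.

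Named were EZH2, up to 4 called members per complex, direction and comparison, or the 2 with the smallest p where none was called, Pfeiffer differences past 0.5, tissue forms, and up to 2 called genes per list and direction. Examples beyond the rule, such as genes lower on both scales, NDUFA5, NDUFA7 and the SDHAF genes, were chosen after their values were seen. Members and lists were chosen with earlier results of these data known. Alternatives were quantile normalization, median centring, adding 16 before log2, no filter, the mean of probe sets, no cross-hybridising probe sets (_x_at, _s_at), no trend, a replicate block, KARPAS-422 arrays alone, and leaving out arrays.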

Additional observations from a re-analysis of the deposited data

How the results depend on the processing

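Counts of members called in KARPAS-422, 42 lower and 1 higher as deposited, were 14 lower and 2 higher after cyclic loess over all probe sets, and 15 and 2 after cyclic loess over the kept probe sets only, an alternative chosen after seeing the data. Of 90 members, 26 were lower with quantile normalization, beside 12.2% of all genes, and 25 with the mean of probe sets, beside 9.45%. Without _x_at and _s_at probe sets 22 of 72 members were lower and 3 higher, beside 8.72% and 13.2% of 10336 genes. Without trend 0 were lower, beside 1.03%. The higher count was 0 with median centring, beside 11.3% of all genes. It was also 0 of 94 members with no filter, beside 6.94% of 19775 genes. Leaving out 1 array gave 9 to 21 lower and 0 to 1 higher, and after cyclic loess 3 to 11 lower and 1 to 3 higher. Without trend after cyclic loess 0 were lower and 1 higher, beside 0.967% and 3.64% of all genes. Same-numbered KARPAS-422 arrays did not deviate together (r = 0.0065 as deposited, across 13036 genes), so the numbers were not taken as pairs. With a replicate block 53 members were lower and 0 higher in KARPAS-422, beside 14.2% and 13.6% of all genes. On the same block 0 were lower over both lines and 7 in the difference between lines, beside 0.0153% and 1.2%.

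Over both lines, 2 lower and 0 higher as deposited, the lower count was 0 after cyclic loess, with quantile normalization, with no filter and without trend. The shares of all genes there were 1.85%, 2.03%, 0.501% and 0%. It was 16 with median centring and 4 with 16 added, beside 7.89% and 3.14%. It was 1 with the mean of probe sets or without _x_at and _s_at probe sets, beside 2.15% and 1.46%. The higher count was 2 after cyclic loess and 1 with the mean of probe sets, beside 3.7% and 3.35%. Leaving out 1 array gave 0 to 41 lower and 0 to 1 higher, beside 0 to 12.6% and 0 to 13.5% of all genes. Between the lines, 9 higher and 28 lower, median centring gave 20 and 15, beside 33.6% and 20.1% of all genes. Leaving out 1 KARPAS-422 array gave 6 to 9 higher and 23 to 24 lower, beside 20.3% to 21.6% and 23.4% to 24.8%. Leaving out a Pfeiffer array moved both counts, with 1 array of that line remaining.

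KARPAS-422 medians for complexes I, II, III, IV and V, -0.24, -0.14, -0.28, -0.20 and -0.29 as deposited, were -0.088, -0.028, -0.019, 0.024 and -0.034 after cyclic loess over all probe sets, and -0.12, -0.076, -0.12, -0.051 and -0.13 with quantile normalization. Median centring gave -0.30 for complex I, -0.20 for II and -0.35 for V. The mean of probe sets gave -0.19 for complex I, -0.15 for III and -0.16 for V, and leaving out _x_at and _s_at probe sets -0.28, -0.19 and -0.18. Leaving out 1 array gave -0.29 to -0.24 for complex I, -0.25 to -0.081 for II, -0.30 to -0.20 for III, -0.28 to -0.13 for IV and -0.32 to -0.28 for V. In Pfeiffer, median centring moved the 5 medians to -0.15, -0.15, -0.054, -0.078 and -0.093. Complex II was at 0.021 with the mean of probe sets and complex V at 0.087 after cyclic loess.

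The KARPAS-422 difference turned its sign in these cases. After cyclic loess over all probe sets it was 0.012 for ATP5MC3, 0.019 for ATP5MG and 0.076 for COX6C, and over the kept ones 0.0068, 0.024 and 0.067. With the mean of probe sets it was 0.020 for ATP5MC3, 0.0042 for ATP5MG, 0.045 for ATP5PB, 0.027 for COX4I1, 0.43 for COX7B (called higher, adjusted p = 0.021), 0.026 for NDUFB4 and 0.18 for NDUFB6. Without _x_at and _s_at probe sets it was 0.23 for ATP5F1C, 0.69 for ATP5MG (called higher, adjusted p = 0.0226), 0.50 for ATP5PB, 0.39 for ATP5PD, 0.75 for COX4I1, 0.40 for NDUFB4 and 0.72 for NDUFB6, where dimmer probe sets stood in. Between the lines NDUFA2 turned to 0.16 in that setting. The cause was not tested in the other cases.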

Other observations

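The TCA cycle and pyruvate dehydrogenase supply the chain with electrons. Of 15 of their genes in KARPAS-422 shEZH2 cells, 9 were lower and 0 higher as deposited, with a median of -0.41, and 7 were lower and 0 higher after cyclic loess, with a median of -0.23. The background shares are those of the KARPAS-422 comparison, 12.3% lower as deposited and 9.16% after cyclic loess. OGDH, a subunit of 2-oxoglutarate dehydrogenase, gave 9.05 and 8.65 with shEZH2, against 9.77 and 9.90 with shNTC, and fell by 0.98 (limma adjusted p = 0.00664). CS, citrate synthase, gave 12.19 and 12.15 with shEZH2, against 12.78 and 13.03 with shNTC, and fell by 0.73 (adjusted p = 0.00325). After cyclic loess they fell by 1.07 and 0.55 (adjusted p = 0.00683 and 0.00998).

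Of 13 genes that transcribe or maintain mitochondrial DNA, 5 were lower and 0 higher as deposited, beside 12.3% and 13.1% of all genes. After cyclic loess 3 were lower and 1 higher, beside 9.16% and 12.2%. The list medians were -0.075 and -0.096. TFB1M, a methyltransferase of mitochondrial ribosomal RNA, fell by 0.66 (adjusted p = 0.00491) and POLRMT, the mitochondrial RNA polymerase, by 0.55 (adjusted p = 0.0165), and both were lower after cyclic loess (adjusted p = 0.00699 and 0.0155). MGME1, a nuclease of mitochondrial DNA, was higher by 0.38 after cyclic loess (adjusted p = 0.0435) and by 0.29 as deposited, where it did not pass (adjusted p = 0.0857). These lists were chosen with earlier results of the data known.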
